A study of Astyanax mexicanus with 6 samples.

Results

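Complement and coagulation genes were examined in SFL and CFL, cell lines grown from the livers of surface fish and of Pachón cavefish of *Astyanax mexicanus*. The set was given as 8 gene symbols, c3b.2, c5, cfd and c9 for complement and pros1, f9b, f3a and f3b for coagulation, of which 7 were found among the 27420 genes of the expression table. f3b had no row of that name. A row named only F3, which the files do not pair with f3b, is described beside f3a. The genes were chosen by their values in these same libraries, as complement genes higher in SFL and coagulation genes lower in SFL, so the difference between the lines is given for them as a description with no test. Bulk RNA-seq was available for 3 libraries of each line, as TPM, a transcript abundance that is already divided by transcript length and scaled to the same total in every library. Where a line is given by 3 values, they stand for its replicates 1, 2 and 3. SFL replicate 1 was at passage 45 and SFL replicates 2 and 3 were at passage 46, while CFL replicate 1 was at passage 50 and CFL replicates 2 and 3 were at passage 51. The donor fish of both lines were about 150 days old, and only the Pachón fish had been starved before dissection. In early passages each line had also received extract from embryos of its own morphotype. The paper describes CFL as hyperdiploid and, from its B chromosomes, proposes a male donor. It reports the physiological chromosome count for SFL, whose sex it could not test. Line, passage, karyotype, any difference in sex and these differences in preparation therefore cannot be told apart. Each line is a clone isolated by dilution and, after those early passages, grown in the same serum-containing medium with insulin and epidermal growth factor, so the libraries of a line are repeated cultures and not separate fish. No treatment was applied, and p-values for other genes measure only the spread between such cultures.

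Complement is a cascade of plasma proteins, made largely by the liver, that marks and lyses microbes. In mammals its central component C3 is cleaved along the classical, lectin or alternative routes, factor D (cfd) being the serine protease that drives the alternative one. C5 then opens the terminal pathway, which ends with a pore built from C6, C7, C8 and many copies of C9. Coagulation starts when tissue factor, the membrane protein encoded by the f3 genes, meets factor VII, and it runs through vitamin K-dependent proteases such as factor IX (f9b) to thrombin and fibrin. Protein S (pros1) is also vitamin K-dependent, but works as a brake, as a cofactor of activated protein C, and is a ligand of TAM receptors such as tyro3.

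The 6 libraries were alike in the number of genes at 1 TPM or more, from 13254 to 13721, and their 10 top genes made up 9.49% to 13.6% of the TPM. Their depth is unknown, because TPM keeps no counts. The labels give the tissue as liver, but the defining hepatocyte genes were nearly silent. hnf4a was at 0.04 TPM or less in every library, ttr was listed at 0 in all 6, and 16 of 22 hepatocyte marker rows stayed below 1 TPM throughout. The summed level of the 22 rows was 1.77 to 2.84 TPM in CFL and 67.1 to 119 TPM in SFL, most of it from rbp4, the plasma retinol carrier, at 0.20 to 0.38 TPM in CFL and 48.6 to 110 TPM in SFL. Not all rows went this way, since tat, a liver transaminase gene, was at 1.12 to 1.83 TPM in CFL and 0.17 TPM or less in SFL. The biliary markers (10 rows, led by the keratin genes krt8 and krt18) summed to 1243 to 1561 TPM in CFL and 6404 to 8634 TPM in SFL, highest in SFL replicate 3, while the defining markers epcam and sox9b were at 0.03 TPM or less. Among the biliary rows spp1 went the other way, at 6.14 to 29.3 TPM in CFL and 0.40 to 1.36 TPM in SFL. The endothelial markers (7 rows) summed to 52.1 to 71.3 TPM in CFL and 76.3 to 90.0 TPM in SFL. Nearly all of this came from kdrl, while cdh5 and pecam1 were at 0.02 TPM or less. The sums of the hepatocyte, biliary and endothelial markers, though not every row, were therefore higher in the same line as the complement genes below. The part of these markers in the complement levels was not tested. In bulk RNA, more cells of a kind and more RNA per cell cannot be told apart.

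c3b.2 (ENSAMXG00000013586), a gene for C3, was detected at 0.04, 0.08 and 0.01 TPM in CFL, compared with 3.37, 3.07 and 5.36 TPM in SFL. It was thus close to absent from CFL and low but present in every SFL library, with no overlap. On the log2(TPM + 1) scale the difference, SFL minus CFL, was 2.21. It was 4.80 with a pseudocount of 0.1, because the CFL values lie far under 1 TPM. c3a.1, the other C3 row found, stayed at 0.42 TPM or less in all 6 libraries. How reads shared by the C3 copies were divided is not known, so the level of c3b.2 is uncertain.

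cfd (ENSAMXG00000038575) was the most abundant complement gene of the set in both lines. The CFL libraries held 11.3, 5.45 and 11.7 TPM of it. The SFL libraries held 68.9, 184 and 981 TPM, so the libraries of SFL themselves spanned a range of 14.2-fold. The lowest SFL library still lay above the highest CFL library. The SFL mean was 43.4 times the CFL mean, and 13.3 times without SFL replicate 3. In SFL replicate 3 cfd stood at the 99.2 percentile of all genes listed above 0, against the 91.1 percentile in SFL replicate 1. In mammals cfd is best known from fat cells, where it is called adipsin. The 4 adipocyte marker rows summed to 262 to 396 TPM in CFL and 44.7 to 455 TPM in SFL, so the lines overlapped, and the rows went different ways. The defining marker adipoqb was at 0.08 TPM or less in every library. The leptin genes lepa and lepb were higher in CFL, with means of 177 and 158 TPM against 0.303 and 20.7 TPM in SFL. The lipid droplet gene cidec was higher in SFL like cfd, with 7.62 to 14.0 TPM in CFL compared with 434, 199 and 38.8 TPM in SFL, but within SFL it was lowest where cfd was highest. The summed fibroblast and stellate cell markers (8 rows, led by col1a2) were at 347, 828 and 1453 TPM in the same SFL libraries, in the order of cfd, and at 1294, 1288 and 665 TPM in CFL. Within SFL col1a1a, col1a2, pdgfrb and acta2 had this order. It was not that of pdgfra, at 1.47, 0.43 and 1.19 TPM, or of dcn, at 13.7, 4.63 and 31.4 TPM. Of all genes with a mean of 1 TPM or more in SFL, 42.5% were highest in SFL replicate 3 and 21.5% in SFL replicate 1. Nothing is therefore read from the shared order. The part of these markers in the cfd level was not tested.

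c5 (ENSAMXG00000007634) and c9 (ENSAMXG00000012950) are the terminal pathway genes of the set. c5 was detected at 0.78, 0.60 and 0.95 TPM in CFL, compared with 6.90, 7.66 and 21.1 TPM in SFL. Its SFL mean of 11.9 ± 8.01 TPM was 15.3 times the CFL mean of 0.777 ± 0.175 TPM (SD, n = 3), and 9.37 times without SFL replicate 3. The CFL libraries held 0, 0 and 0.02 TPM of c9 and the SFL libraries 0.93, 3.28 and 11.4 TPM, with an SFL mean of 5.20 TPM that fell to 2.10 TPM without SFL replicate 3. CFL therefore held practically no c9 RNA, and SFL replicate 3 held 12.2 times as much as SFL replicate 1. The level of c9 relative to c5 also differed among the SFL libraries, at 0.135, 0.428 and 0.539 in replicates 1, 2 and 3.

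All 4 complement genes had every SFL library above every CFL library. This was so for 29.8% of all 18489 tested genes, and the 4 were chosen for being higher in SFL, so nothing is read from the count. Differences on the log2(TPM + 1) scale were 2.21 for c3b.2, 2.70 for c5, 4.54 for cfd and 2.22 for c9, against a median of 0.07 over all tested genes.

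**Figure D1:**
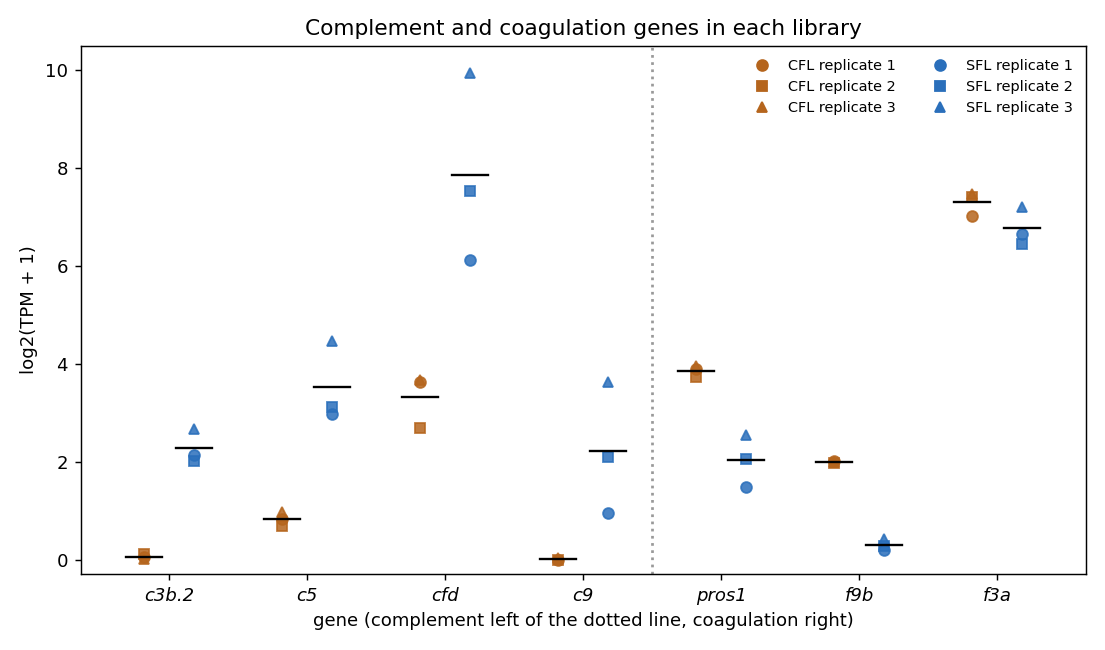
Level of each gene as log2(TPM + 1) (vertical axis) in the 3 CFL libraries (brown) and 3 SFL libraries (blue), with the replicate shown by the symbol and the mean of a line by a bar. The 4 complement genes lie higher in SFL without overlap, pros1 and f9b lie higher in CFL without overlap, and the lines overlap for f3a; cfd reaches 981 TPM in SFL replicate 3.

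pros1 and f9b went the other way. pros1 (ENSAMXG00000009492), the gene for protein S, was detected at 13.8, 12.3 and 14.5 TPM in CFL, compared with 1.80, 3.15 and 4.87 TPM in SFL. CFL was uniform and each of its libraries was above all of SFL, the CFL mean being 4.13 times the SFL mean. f9b (ENSAMXG00000035231), a factor IX gene, was detected at 3.05, 2.95 and 2.98 TPM in CFL, compared with 0.15, 0.21 and 0.33 TPM in SFL. The CFL mean was 2.99 ± 0.0513 TPM (SD, n = 3), 13 times the SFL mean. The SD of log2(TPM + 1) of f9b among the CFL libraries was 0.02. It was smaller than that of all but 0.9% of the 13455 genes with a mean of 1 TPM or more in CFL. This scale shrinks the spread of low genes. f9a, the other factor IX row, was listed at 0 in all 6 libraries. The macrophage markers (8 rows, of which 6 stayed below 1 TPM) summed to 43.3 to 113 TPM in CFL and 22.0 to 33.6 TPM in SFL. The sum was thus higher in CFL with pros1 and f9b, but nearly all of it came from a row of MPEG1. That row was at 41.7 to 112 TPM in CFL and 21.3 to 32.8 TPM in SFL. The other rows were low and went both ways. Means were higher in CFL for csf1ra, coro1a, spi1b and the other MPEG1 row, and in SFL for PTPRC, cd74a and lcp1. The part of these markers in the levels of pros1 and f9b was not tested. The summed fibroblast and stellate markers, given above, overlapped between the lines, but their rows went both ways. pdgfra was at 18.9 to 23.8 TPM in CFL and 0.43 to 1.47 TPM in SFL. pdgfrb was at 8.95 to 13.3 TPM in CFL and 0.26 to 1.41 TPM in SFL. Both were thus higher in CFL without overlap, like pros1 and f9b and 23.1% of all tested genes. col1a1a went the other way, with every SFL library above every CFL library, as in 29.8% of all tested genes. Its mean was 71.9 TPM in CFL and 280 TPM in SFL. The mean of acta2 was also higher in SFL, at 85.0 TPM against 29.6 TPM in CFL, but its lines overlapped. The part of the fibroblast and stellate markers in the levels of pros1 and f9b was not tested. Differences on the log2(TPM + 1) scale were -1.83 for pros1 and -1.70 for f9b (-3.26 with a pseudocount of 0.1). Although both were higher in CFL, their proportion was not the same in the lines. There was 4.15 to 4.86 times as much pros1 as f9b in the CFL libraries and 12 to 15 times as much in the SFL libraries. f9b was only at 0.15 to 0.33 TPM in SFL, and both genes were chosen on this contrast, so nothing is read from the proportion.

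f3a (ENSAMXG00000000120), a tissue factor gene, was the most abundant coagulation gene of the set. It was detected at 129, 170 and 176 TPM in CFL, compared with 100.4, 86.2 and 147 TPM in SFL. The lines overlapped, since SFL replicate 3 was above CFL replicate 1, and the log2(TPM + 1) difference of -0.53 was the smallest of the set. f3a thus leaned towards CFL without separating the lines, and 2 of the 3 coagulation genes found, pros1 and f9b, had every CFL library above every SFL library (23.1% of all tested genes did).

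The row named F3 (ENSAMXG00000000760) was detected at 84.7, 106 and 60.2 TPM in CFL, compared with 156, 85.3 and 219 TPM in SFL. The lines overlapped here too, and the difference did not pass the test (limma, log2 fold change 0.80, SE 0.38, adjusted p = 0.143), though it did without SFL replicate 2 (log2 fold change 1.17, adjusted p = 0.037). Added together, f3a and F3 came to 242 ± 31.4 TPM across CFL and 264 ± 97.8 TPM across SFL (SD, n = 3 each), and the sums of the lines overlapped. The share of f3a in that sum was 60.4%, 61.6% and 74.5% in the CFL libraries and 39.2%, 50.3% and 40.1% in the SFL libraries. Tissue factor RNA therefore came mostly from f3a in CFL, and from both rows or more from F3 in SFL, with no overlap in the share. Because f3a was chosen on the same contrast, the share was not tested, and how reads common to both rows were divided is not known.

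**Figure D2:**
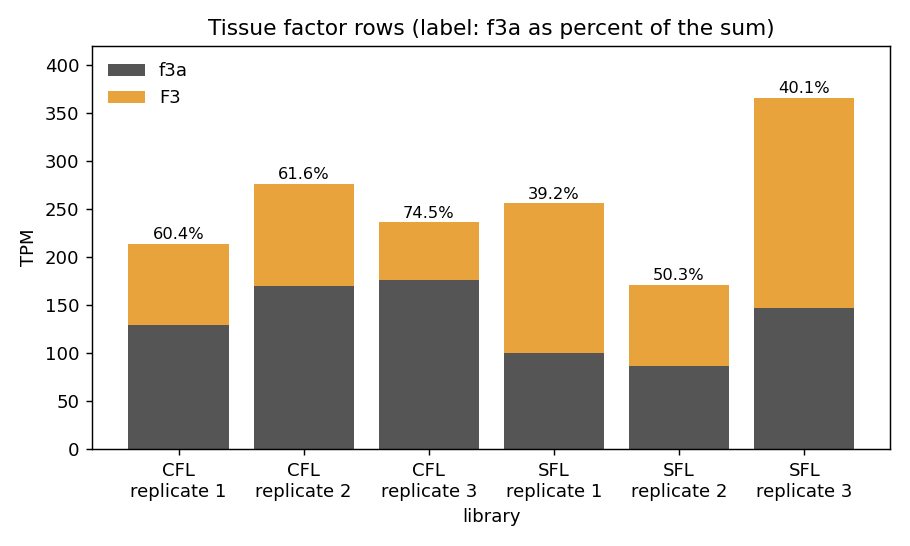
TPM of f3a (grey) and of the row named F3 (orange), stacked for each library, with the share of f3a in the sum printed above each bar. The share is 60.4% to 74.5% in CFL and 39.2% to 50.3% in SFL, while the sums overlap.

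The order of the genes differed between the lines. The complement and coagulation genes were chosen for opposite differences, so nothing is read from this change of order. In CFL the order of mean levels was f3a, pros1, cfd, f9b, c5, c3b.2 and c9, and every neighbouring pair was separated in all libraries except c3b.2 and c9. In SFL it was cfd, f3a, c5, c9, c3b.2, pros1 and f9b. There the libraries overlapped between cfd and f3a, and between each neighbouring pair from c5 to pros1, so in SFL only the step from f3a down to c5 and the step from pros1 down to f9b were clear.

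The libraries of SFL also differed from each other in a shared way. Each of the 7 genes had its highest SFL value in replicate 3, those lower in SFL included. Over the 13798 genes with a mean of 1 TPM or more in SFL, 42.5% were highest in that library. The level in SFL replicate 3 was 7.77 times the mean of SFL replicates 1 and 2 for cfd, 5.41 times for c9, 2.90 times for c5, and 1.57 to 1.97 times for c3b.2, pros1, f9b and f3a, where the median over all these genes was 1.03 times. The SD of log2(TPM + 1) among the SFL libraries was 1.93 for cfd and 1.35 for c9, above 99.3% and 97.1% of those genes, and 0.35 for c3b.2, near the median of 0.33. Replicates 2 and 3 carry the same passage number, so passage does not separate them. In CFL the spread of cfd was also wide (SD 0.55, above 92.3% of genes), with CFL replicate 2 the low library. Of the other genes of the lists below with a mean of 1 TPM or more in SFL, 10 of 15 coagulation genes and 2 of 6 complement genes were highest in SFL replicate 3.

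**Figure D3:**
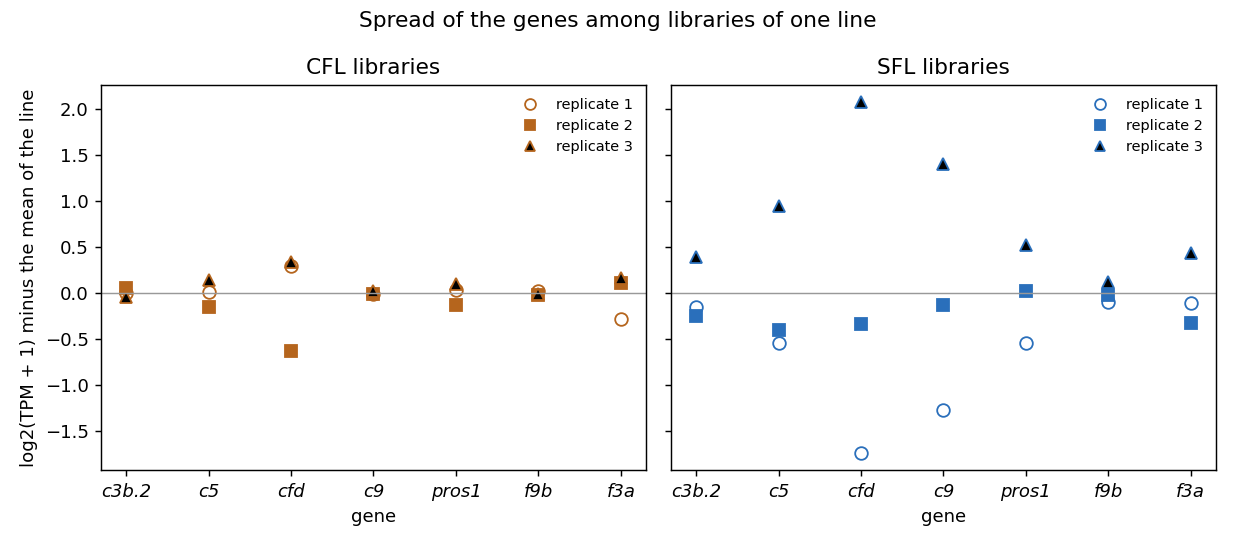
log2(TPM + 1) of each gene minus the mean of its line (vertical axis), for the CFL libraries (left) and the SFL libraries (right); symbols and fill mark the replicate. In SFL all 7 genes are highest in replicate 3, with an SD of 1.93 for cfd and 0.35 for c3b.2, while most CFL points lie close to 0. In CFL c3b.2, c5 and c9 are under 1 TPM, where this scale shrinks deviations.

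To see whether these genes stood for their pathways, 32 further rows of complement genes and 49 of coagulation genes were compared between the lines with limma on log2(TPM + 1). Fold changes are SFL over CFL, and a gene was called if they reached 2 in either direction with an adjusted p (Benjamini-Hochberg over 18489 genes) under 0.05. Of the 18 other complement genes that could be tested, 2 (11.1%) were called higher in SFL, where 11.7% of all tested genes were, and 0 were called higher in CFL, where 8.88% of all tested genes were. At an unadjusted p under 0.05, limma gave 8 (44.4%) higher in SFL and 1, itgb2, higher in CFL, where 26% and 20.5% of all tested genes were. In 9 (50%) every SFL library was above every CFL library, against 29.8% of all tested genes. With a pseudocount of 0.1, 7 (38.9%) were called higher in SFL and 0 in CFL, against 17.2% and 13.5% of all tested genes. The share called higher in SFL was thus close to that of all genes at a pseudocount of 1 and above it at 0.1, where masp2, colec11, c7b, c8g and serping1 were added. The median log2 fold change of the 18 was 0.39, and 15 of them had a positive value. A gene was tested if it reached 0.2 TPM in any library. COLEC10 and the genes added at 0.1 stayed under 0.2 TPM in every CFL library, so they were tested only because of SFL. Such genes can hardly be higher in CFL, so nothing about the pathway is read from these shares and signs.

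Among the recognition molecules, COLEC10 (ENSAMXG00000033176), a collectin of the lectin route, was listed at 0 in all CFL libraries and was at 4.14, 17.8 and 8.03 TPM in SFL replicates 1, 2 and 3 (limma, adjusted p = 0.00213). It was called in all 15 alternative settings, but it was tested only because of SFL, so nothing is read from its side. The related colec11 reached 0.61 TPM at most and masp2, a protease of the same route, 0.69 TPM, both in SFL. c1qa was listed at 0 in all libraries and c1qb and c1qc stayed at 0.05 TPM or less. RNA of these named rows for C1q, the recognition part of the classical route, was thus practically missing. The macrophage markers PTPRC and spi1b were at 0.21 TPM or less, and macrophages are a main source of C1q in mammals. A row of MPEG1, another macrophage marker, was at 41.7 to 112 TPM in CFL and 21.3 to 32.8 TPM in SFL. csf1ra reached 1.01 TPM in CFL and was listed at 0 in SFL. The part of macrophages in the C1q levels was not tested.

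In the terminal pathway c5 was the most abundant gene of SFL, and the genes between c5 and c9 were low. c6 was at 0.02 TPM or less, C8A at 0.05 TPM or less and c8b at 0.03 TPM or less in every library. c7b was at 0.03 to 0.09 TPM in CFL, compared with 1.11, 0.97 and 0.99 TPM in SFL, and c8g reached 0.58 TPM in SFL. Both were under the 2-fold threshold on log2(TPM + 1), with a limma adjusted p of 0.000721 for c7b (log2 fold change 0.93) and 0.0172 for c8g (log2 fold change 0.50). Both were called higher in SFL with a pseudocount of 0.1, and c7b also with 0.5. Both reached 0.2 TPM only in SFL, so nothing is read from their side. The other c7 row, c7a, was at 0.18 to 0.42 TPM in CFL, compared with 2.10, 0.16 and 0.45 TPM in SFL, which overlapped (limma, adjusted p = 0.357). In SFL replicate 1 both c7 rows were above c9, and in SFL replicates 2 and 3 c9 was above both.

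Of the regulators, clu (ENSAMXG00000018116), the gene for clusterin, which binds terminal complexes in mammals, was detected at 77.3, 89.2 and 99.3 TPM in CFL, compared with 241, 189 and 641 TPM in SFL. It rose in SFL (limma, log2 fold change 1.79, SE 0.44, adjusted p = 0.0212), but its adjusted p was 0.055 to 0.0758 when any CFL library was left out and 0.107 with the later passages alone. The factor H-like gene cfhl1 was detected at 0.17, 1.54 and 2.57 TPM in CFL, compared with 29.1, 5.33 and 1.15 TPM in SFL, so SFL replicate 3 was below CFL replicates 2 and 3 (limma, log2 fold change 1.76, SE 0.94, adjusted p = 0.187). Without SFL replicate 3 it was called (log2 fold change 2.65, adjusted p = 0.0414). A clusterin-like row, clul1 (ENSAMXG00000013306), averaged 33.6 ± 1.43 TPM across CFL and 49.9 ± 8.71 TPM across SFL (SD, n = 3 each, limma adjusted p = 0.0601). The other clul1 row was low and leaned the other way with overlap, with means of 0.53 TPM in CFL and 0.25 TPM in SFL (limma, adjusted p = 0.223). The integrin gene itgb2, whose product is a chain of complement receptors, was detected at 57.9, 43.8 and 45.2 TPM in CFL, compared with 15.7, 18.4 and 43.9 TPM in SFL (limma, log2 fold change -1.02, SE 0.38, adjusted p = 0.0788). Without SFL replicate 3 it was called higher in CFL (log2 fold change -1.46, adjusted p = 0.00313). Its partner chain itgam was at 0.09 TPM or less.

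The other coagulation genes lay on both sides. Of 28 tested, 3 (10.7%), fgb, tfpi2 and serpinc1, were called higher in SFL, close to the 11.7% of all tested genes, while 0 were called higher in CFL (8.88% of all tested genes). At an unadjusted p under 0.05, limma gave 7 (25%) higher in SFL and 4 (14.3%) higher in CFL, and 9 (32.1%) and 5 (17.9%) had no overlap with SFL and CFL above, against 26%, 20.5%, 29.8% and 23.1% of all tested genes. The 4 higher in CFL were thbd, serpinf2a, f2r and an f2rl1.1 row. serpinf2a, the gene for a plasmin inhibitor, was at 0.57 to 0.97 TPM in CFL and 0.02 TPM or less in SFL (limma, log2 fold change -0.77, adjusted p = 0.00321), under the 2-fold threshold on this scale. f2r, the thrombin receptor gene, was at 0.57 to 1.64 TPM in CFL and 0.11 to 0.22 TPM in SFL (limma, log2 fold change -0.74, adjusted p = 0.0281). The median log2 fold change of the 28 was 0.06, against 0.07 over all tested genes, and 14 were positive and 14 negative. With a pseudocount of 0.1, 6 (21.4%) were called higher in SFL and 4 (14.3%) in CFL, where 17.2% and 13.5% of all tested genes were. Here too some genes passed the filter through a single line, such as fgb through SFL and serpinf2a through CFL.

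**Figure D4:**
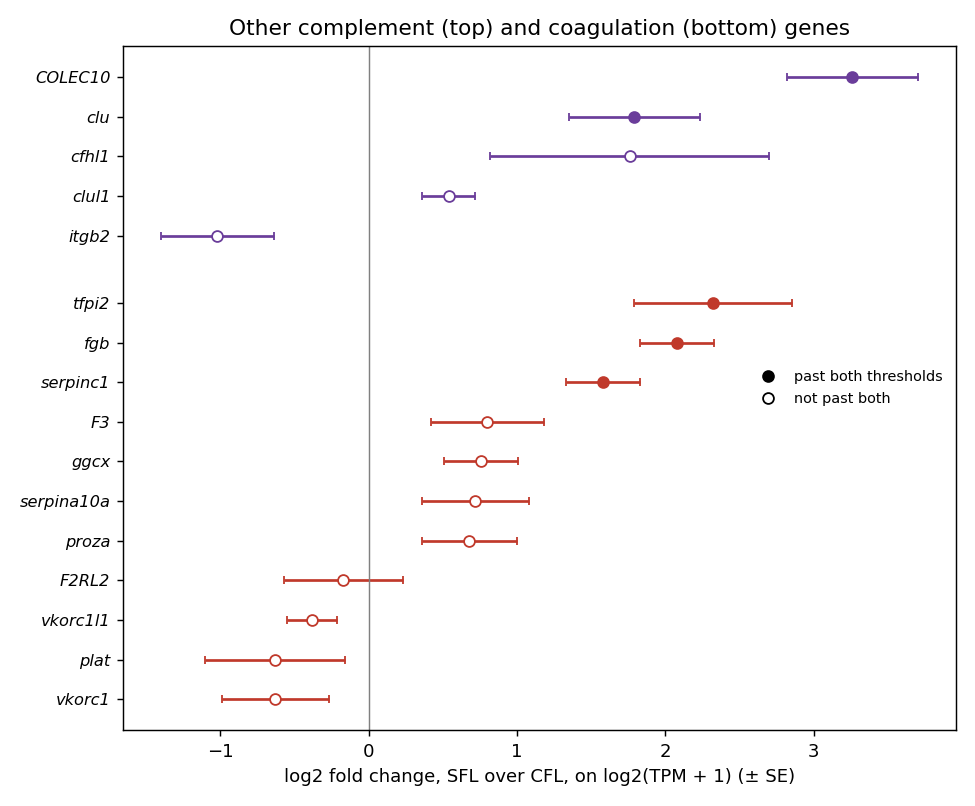
log2 fold change, SFL over CFL, with its SE (horizontal axis) for complement genes (purple) and coagulation genes (red) outside the set that were called or had a mean of at least 10 TPM in a line; filled points passed both thresholds. The 5 filled points, COLEC10, clu, tfpi2, fgb and serpinc1, all lie on the SFL side. COLEC10 and fgb were tested only because of SFL, so nothing is read from their side. Over all tested genes 11.7% were called higher in SFL and 8.88% higher in CFL. The value of COLEC10, listed at 0 in CFL, depends on the pseudocount.

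fgb (ENSAMXG00000018060), a chain of fibrinogen, was detected at 0.09, 0.14 and 0.14 TPM in CFL, compared with 3.09, 2.76 and 5.96 TPM in SFL (limma, log2 fold change 2.08, SE 0.25, adjusted p = 0.00129). fgb reached 0.2 TPM only in SFL, so nothing is read from its side. The fibrinogen chain gene fgg stayed at 0.31 TPM or less in all libraries. serpinc1 (ENSAMXG00000018053), the gene for antithrombin, the main inhibitor of thrombin, was detected at 0.51 to 1 TPM in CFL, compared with 2.68, 4.63 and 5.63 TPM in SFL (limma, log2 fold change 1.58, SE 0.25, adjusted p = 0.00428). tfpi2 (ENSAMXG00000014363), a protease inhibitor related to the tissue factor pathway inhibitor, was detected at 21.7, 32.3 and 8.94 TPM in CFL, compared with 170, 85.8 and 61.8 TPM in SFL (limma, log2 fold change 2.32, SE 0.53, adjusted p = 0.0163, and 0.0972 with the later passages alone). The lines did not overlap for any of these 3 genes.

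Several protease genes of the hepatocyte were close to absent. f2, the gene for prothrombin, f7 and f10 reached at most 0.17, 0.05 and 0.17 TPM, and plg, the gene for plasminogen, at most 0.16 TPM. proza, a gene for protein Z, which is vitamin K-dependent but not a protease, was well detected, with 36.7, 39.8 and 35.4 TPM in CFL compared with 41.0, 53.2 and 99.4 TPM in SFL, a difference that did not pass the test (limma, adjusted p = 0.145). serpina10a, whose mammalian counterpart inhibits factor X with protein Z, averaged 34.9 ± 4.93 TPM across CFL and 63.1 ± 34.9 TPM across SFL (SD, n = 3 each, limma adjusted p = 0.165).

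The enzymes that make vitamin K-dependent proteins functional were present in every library. ggcx, the gamma-carboxylase, averaged 9.80 ± 2.42 TPM across CFL and 17.2 ± 3.54 TPM across SFL (SD, n = 3 each, limma adjusted p = 0.0575). vkorc1, which recycles vitamin K, was at 12.8 ± 4.46 and 8.09 ± 3.73 TPM, and its relative vkorc1l1 at 28.5 ± 3.75 and 21.6 ± 0.773 TPM, in CFL and SFL (SD, n = 3 each, limma adjusted p = 0.219 and 0.126). None of the 3 enzymes passed the thresholds, whereas pros1 and f9b, which depend on them, were higher in CFL as chosen.

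In fibrinolysis, plat, the gene for the tissue plasminogen activator, was detected at 57.8, 85.3 and 81.7 TPM in CFL, compared with 26.1, 41.0 and 98.6 TPM in SFL (limma, adjusted p = 0.326). Without SFL replicate 3, plat was called higher in CFL (log2 fold change -1.15, adjusted p = 0.0222). thbd, the gene for thrombomodulin, was at 3.12, 5.69 and 0.21 TPM in CFL and listed at 0 in all SFL libraries, and was called only without CFL replicate 3 or with a smaller pseudocount. Of the receptors, tyro3, which binds protein S in mammals, was at 4.83 to 5.90 TPM in CFL and 5.22 to 10.2 TPM in SFL. The thrombin receptor relative F2RL2 was detected at 5.30, 8.32 and 18.3 TPM in CFL, compared with 8.57, 8.04 and 8.14 TPM in SFL (limma, adjusted p = 0.754). The 12 rows named f2rl1.1 were all at 2.73 TPM or less, and reads of such copies are hard to tell apart.

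For each gene the 3 most similar profiles were sought among 12031 genes with a symbol, by the root mean square difference of log2(TPM + 1) over the 6 libraries after centring each gene on its mean. The members were chosen on these same libraries, so nothing is read from the side of a similar profile. For c3b.2 the nearest were si:ch211-244b2.4 (0.06), the fibrinogen gene fgb (0.11) and antxr2b (0.12). fgb reached 0.2 TPM only in SFL and c3b.2 was chosen as higher there, so nothing is read from their closeness. For c5 they were cadm2b (0.16), itga9 (0.19) and PIK3R6 (0.19), and for c9 plekhg5b (0.20), aif1l (0.22) and sema3h (0.22). The steep SFL profile of cfd was matched least closely, by mxra8b (0.43), slc6a22.1 (0.47) and si:ch73-335l21.4 (0.48). mxra8b was at 0.59 to 1.52 TPM in CFL, compared with 17.7, 38.2 and 256 TPM in SFL, in the same order as cfd. For pros1 the nearest were adcy7 (0.16), nkain2 (0.16) and bves (0.17). For f9b they were BFAR (0.05), nod2 (0.07) and creld1b (0.08), and for f3a pde3a (0.04), slc29a3 (0.06) and efna2b (0.08), but low genes lie close together on this scale.

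Genes next to the members on the chromosomes were compared in the same way. For 6 of the 7 genes, 5 protein-coding neighbours on each side were taken from the AstMex3_surface gene table, used only for gene order. Of the 26 neighbours that could be tested, 3 were called higher in SFL and 3 higher in CFL, 11.5% each, near the 11.7% and 8.88% of all tested genes. The median log2 fold change of the neighbours was -0.69 for cfd (4 genes), -0.02 for c5 (3 genes) and 0.33 for c9 (6 genes), and -0.13 for pros1 (3 genes), -0.54 for f9b (4 genes) and -0.14 for f3a (6 genes).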

How the data were processed

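Poly(A) RNA was sequenced from 3 SFL and 3 CFL libraries, whose groups come from the sample titles. The titles and the study's design describe cell lines, whereas the tissue label reads liver. Single reads were aligned by the authors with STAR (2.7.3a in the submitters' processing notes) to the UCSC *A. mexicanus* reference under an Ensembl annotation, the assembly of which is not given in the sources used here, and abundance was estimated with RSEM. The authors deposited a TPM value for each gene, with no scaling between libraries stated, so counts and depth are unknown and no counting error could be given. Each of the 6 columns carries the title of its library.

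Genes that reached 0.2 TPM in 1 or more libraries (18489 of 27420) were compared on log2(TPM + 1) using limma 3.58.1 (lmFit, eBayes with a trend) in R 4.3.3, which understates changes of low genes. The authors' edgeR test needs counts and was not repeated. With 3 libraries against 3, an exact permutation test of a single gene cannot give a p below 0.1. No row of 79 ribosomal protein genes was at 0 in all libraries. The fit was tested on simulated data, and tables were made with Python 3.11.15, numpy 2.4.6 and pandas 2.3.3.

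The members, the lists (98 symbols for complement and coagulation, matched with their copies), the cell type markers and the rules were chosen with earlier results of these data known. Named genes are the members, other list genes that were called or had a mean of at least 10 TPM in a line, and 3 nearest profiles per member. A coagulation gene that met this rule is not reported here or drawn, but stays in the counts. Other list genes named with low TPM were picked after their values were seen, to describe each step of the pathways. Genes of the lists without a row under their symbol were not analysed here. The alternatives were pseudocounts of 0.1 and 0.5, other filters, quantile normalization or median-ratio scaling, the replicate block, no variance trend, the later passages alone and each library left out.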

Additional observations from a re-analysis of the deposited data

How the results depend on the processing

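The differences of the 7 members kept their sign in all alternatives run. Under pseudocounts of 0.1 and 0.5 they moved by more than the spread between libraries for c3b.2 (4.80 and 3.00), c9 (5.01 at 0.1), c5 (3.60 at 0.1) and f9b (-3.26 and -2.27), whose levels lie under 1 TPM in a line. The counts of other complement genes called higher in SFL were 7 and 4 with these pseudocounts, 1 with the later passages alone and 1 to 3 with each library left out, against 2. Those higher in CFL were 0 to 1 with each library left out. For the other coagulation genes, 6 were higher in SFL with a pseudocount of 0.1, against 3, and 4 and 3 were higher in CFL with 0.1 and 0.5, against 0, and 0 to 1 with each library left out. Over all 18489 tested genes, the calls rose on both sides with a pseudocount of 0.1. They went from 2168 to 3187 for SFL and from 1642 to 2492 for CFL. With 0.5 the calls were 2553 for SFL and 1986 for CFL. With the later passages alone they were 1698 for SFL and 1138 for CFL, of 18093 tested genes. Same-numbered libraries deviated from the means of their lines with correlations of -0.225, 0.078 and -0.074 across genes, so the numbers were not taken to pair them, and not every library was closest to its own number. With the replicate block, 2 other complement and 3 other coagulation genes were called higher in SFL and 0 higher in CFL, as without it. Scaling moved the median of all genes from 0.07 to no lower than -0.02. The share of f3a among f3a and f3b was not recomputed because f3b has no row.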
